A study of Mus musculus with 21 samples.

Results

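Nascent RNA of mouse cortical cultures was compared between pretreatment with MM401 and pretreatment with its solvent DMSO, after 1 h of bicuculline. The comparison takes in the 3 libraries of MM401 with bicuculline at 1 h and the 3 libraries of DMSO with bicuculline at 1 h, which are 6 of the 21 libraries of the series, chosen by their labels alone. The cultures came from cortex of CD1 mice and were used at day 17 in vitro. All 6 received 40 µM bicuculline over 1 h and 2 mM bromouridine over the last 30 min, and the groups differed in the 30 min preincubation with 25 µM MM401 or with DMSO. Per the labels' protocols the 3 replicates of each group were biological and of mixed sex. The values are counts of reads over the whole span of each gene, introns included. The other libraries of the series, with water in place of bicuculline or with 4 h of bicuculline, enter here in 2 ways: they share the fit, and so the estimate of each gene's spread behind the SE and p at 1 h, and some results at 1 h are set beside them.

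MM401 is a peptidomimetic that occupies the pocket of WDR5 through which MLL1 (gene Kmt2a) docks, and so impairs the methylation of histone H3 at lysine 4 by the MLL1 complex. Bicuculline blocks GABA-A receptors, the main inhibitory receptors of cortex, and raises the firing of the culture. Neurons answer raised firing with rapid induction of transcription factor genes such as Fos and Npas4 and with a slower wave of effector genes such as Bdnf. Bromouridine is built into RNA as it is made, so the isolated RNA reports transcription during the labelling window rather than the stock of mature RNA. The comparison therefore asks which genes are transcribed more or less when MLL1 is inhibited shortly before and during the rise in activity.

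The 6 libraries held 49886348 to 84833695 counts in genes, and 16959 of 24984 genes had enough counts to be tested. One library elsewhere in the series, a replicate of MM401 with water at 4 h, held 316741 counts and was left out of the fit. Replicates of MM401 with bicuculline at 1 h were unequal: the chi-square statistic of their counts per degree of freedom was 8.45 between replicates 1 and 2, but 29.1 and 31 between replicate 3 and the other two. The DMSO replicates lay between these, at 15.1, 16.6 and 23.9. Counts of calls and the values of Ahrr, the ribosomal protein genes and the long genes are given with and without MM401 replicate 3. The summed level of 6 pan-neuronal markers was 5660 to 6060 CPM (edgeR's normalised read count, relative to the TMM-scaled library total) in DMSO and 5520 to 6550 in MM401, and astrocyte markers were present at 766 to 869 and 827 to 900 CPM, so the cultures held neurons and glia in both groups.

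Very few genes differed between MM401 and DMSO beyond the spread between replicates at 1 h. In edgeR's quasi-likelihood test, 1 gene of 16959 (0.0059%) passed a Benjamini-Hochberg adjusted p of 0.05: Ahrr, the repressor of the aryl hydrocarbon receptor, which rose. No gene passed in the lower direction. At an unadjusted p under 0.05 there were 261 genes higher (1.54% of those tested) and 279 lower (1.65%), and DESeq2 on the same counts called 13 genes. These counts moved with single libraries: the adjusted test called 0 genes without DMSO replicate 2 or MM401 replicate 3 and 2 (Ahrr and Rps4x) without DMSO replicate 3, and the 540 genes at an unadjusted p under 0.05 became 842, 1082 and 855. That number was lower in other settings: 392 without DMSO replicate 1, 405 without MM401 replicate 2, 389 on the 6 libraries alone and 292 with the shallow library in the fit. The median log2 fold change over all tested genes was 0.010, and the median standard error (SE) of a gene was 0.11. The 95% interval of the log2 fold change lay wholly within 1 of 0 for 89% of the genes, and within 0.5 of 0 for 97.1% of the 6024 genes between 10 and 100 CPM, but for only 2.26% of the 3322 genes under 1 CPM. For genes of low level a moderate change was therefore not detectable at this depth.

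**Figure D1:**
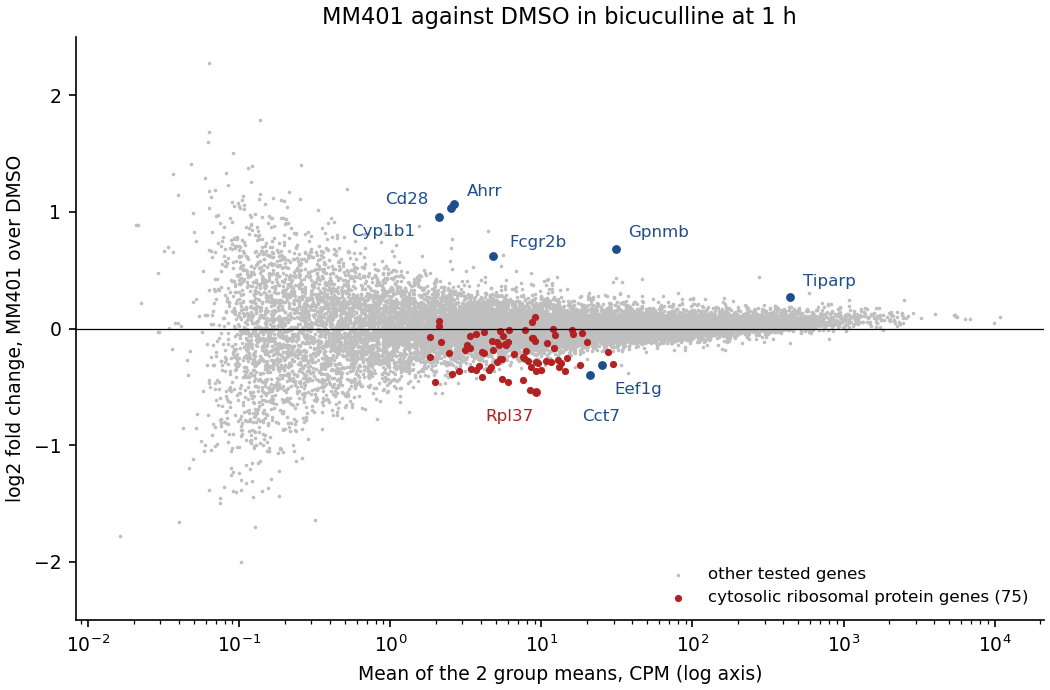
Each point is 1 of 16959 tested genes, with its mean level in the 6 libraries (CPM, log axis) and its log2 fold change, MM401 over DMSO, in bicuculline at 1 h; 1 gene lies outside the plotted range of 2.5. Ahrr stands at 1.07, beside Cd28 at 1.03, and the 75 tested ribosomal protein genes (red) lie mostly below 0.

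The aryl hydrocarbon receptor (Ahr) is a ligand-activated transcription factor held in the cytoplasm by a complex that includes Hsp90 and p23 (Ptges3). On binding a ligand it enters the nucleus, pairs with Arnt or Arnt2, and binds sites with the core GCGTG. Its classical targets are the cytochrome genes Cyp1a1 and Cyp1b1, Tiparp, which ADP-ribosylates the receptor, and Ahrr, which competes for Arnt and so limits the response. Because Ahrr was the called gene and Cyp1b1 the member next to it in size, the 250 bases upstream of each start in RefSeq (GRCm38.p6) are shown, with GCGTG on either strand in capitals (CACGC when read on the strand printed). Ahrr holds 3 such cores, 107, 82 and 27 bases upstream of the start (window chr13:74292332-74292581, minus strand), and Cyp1b1 holds 1, 76 bases upstream (chr17:79715062-79715311, minus strand).
Ahrr: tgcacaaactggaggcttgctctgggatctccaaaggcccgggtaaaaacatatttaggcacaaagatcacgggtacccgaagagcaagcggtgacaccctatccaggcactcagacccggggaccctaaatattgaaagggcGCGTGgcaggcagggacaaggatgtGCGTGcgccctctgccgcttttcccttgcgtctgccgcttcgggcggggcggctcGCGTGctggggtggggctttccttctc
Cyp1b1: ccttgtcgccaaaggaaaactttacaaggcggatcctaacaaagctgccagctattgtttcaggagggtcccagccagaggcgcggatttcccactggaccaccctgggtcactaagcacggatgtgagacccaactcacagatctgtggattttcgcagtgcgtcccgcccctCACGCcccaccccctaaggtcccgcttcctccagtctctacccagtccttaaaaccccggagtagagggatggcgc
Of 16458 windows of the 13083 tested genes that could be matched, 40.9% held at least 1 such core and 4.71% held at least 3, so a single core is common and 3 are less so. A match is a description of these letters and not evidence of binding.

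Ahrr (chromosome 13, 74211117 to 74292331) was at 1.74, 1.61 and 1.81 CPM in DMSO replicates 1, 2 and 3 and at 3.23, 3.30 and 4.22 CPM in MM401. Every MM401 library lay above every DMSO library, and replicate 3 was the highest. These levels rest on 92 to 134 counts per DMSO library and 148 to 282 per MM401 library. The gene rose 2.1-fold, with a log2 fold change of 1.07 ± 0.14 (SE, 95% interval 0.77 to 1.36, edgeR adjusted p = 0.00302). The adjusted p was 0.0583 without MM401 replicate 3 and 0.0727 without DMSO replicate 2, with log2 fold changes of 0.91 and 1.02. Fitted on the 6 libraries alone, the size was 1.06 and the adjusted p 0.104.

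Cyp1b1 (chromosome 17, 79706940 to 79715061), a monooxygenase of xenobiotic and steroid metabolism, had 1.71, 1.25 and 1.32 CPM in DMSO and 2.62, 2.83 and 2.83 CPM in MM401. Its groups did not overlap either. The log2 fold change was 0.95 ± 0.18, but the edgeR adjusted p of 0.0864 missed the threshold. DESeq2 gave it an adjusted p of 0.00102.

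Tiparp (chromosome 3, 65528446 to 65555518) was at 415, 355 and 435 CPM in DMSO and 468, 519 and 470 CPM in MM401, a log2 fold change of 0.27 ± 0.083 that did not pass after adjustment. It shares part of its span with 4931440P22Rik on the opposite strand, and whether counting used strand is not given in the sources used here. Nqo1, a quinone reductase, had 1.07 to 1.28 CPM in DMSO and 1.41 to 1.55 in MM401, with 0.28 ± 0.24. Nfe2l2, which encodes the oxidative stress factor NRF2, had 44.1 to 50.1 and 50.3 to 52.8 CPM, with 0.14 ± 0.10. The groups of all 3 were apart by a small margin, and none was called. Cyp2s1 was under 0.3 CPM in all 6 libraries, with -0.22 ± 0.54. Cyp1a1, Cyp1a2, Aldh3a1 and Ugt1a6a had at most 3 counts in any of the 6 libraries and could not be tested, so their response is not known from these data.

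No difference of the receptor or its partners passed the test. Ahr itself was at 14.7 to 16.9 CPM in DMSO and 13.2 to 15.4 in MM401 (-0.12 ± 0.076), Arnt had 0.040 ± 0.052 and Arnt2 0.0070 ± 0.084, all without a call. The chaperone genes Hsp90aa1 (-0.11 ± 0.26) and Hsp90ab1 (-0.026 ± 0.39) varied widely between replicates, the latter from 42.8 to 117 CPM within DMSO. Ptges3 differed by 0.027 ± 0.048. Of the 13 tested members of the pathway, 9 were higher and 4 lower, and 5 were higher without overlap of the groups, where 3.25% of all tested genes were. The median of the 13 was 0.040. Among the 5 tested targets 4 were higher, with a median of 0.27 and no call, and among the receptor and its partners 4 of 7 were higher, with a median of 0.0070; the targets were not tested against the partners.

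Libraries outside the comparison showed the level of Ahrr under other treatments. In bicuculline at 4 h it was at 1.96 to 2.18 CPM in DMSO and 2.71 to 3.03 in MM401 (0.48 ± 0.14, adjusted p = 0.639), and with water at 4 h at 1.35 to 1.54 CPM in 3 DMSO libraries and at 2.44 and 2.89 CPM in 2 MM401 libraries (0.87 ± 0.16, edgeR adjusted p = 0.0349, 1 of 14 genes or 0.0826% called in that condition). The 3 libraries of MM401 with water at 1 h, for which a DMSO group is not analysed here, had 4.56, 3.22 and 3.78 CPM. MM401 libraries thus lay above the DMSO libraries of their condition in each of the 3 conditions. The difference at 1 h exceeded that at 4 h of bicuculline by 0.58 ± 0.20, and the test of this difference gave an edgeR adjusted p of 0.70. Cyp1b1 had a log2 fold change of 0.83 ± 0.18 in bicuculline at 4 h and 0.48 ± 0.20 in water at 4 h, neither called. Tiparp had values near 0 at 4 h (-0.011 ± 0.083 with bicuculline, 0.034 ± 0.094 with water).

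**Figure D2:**
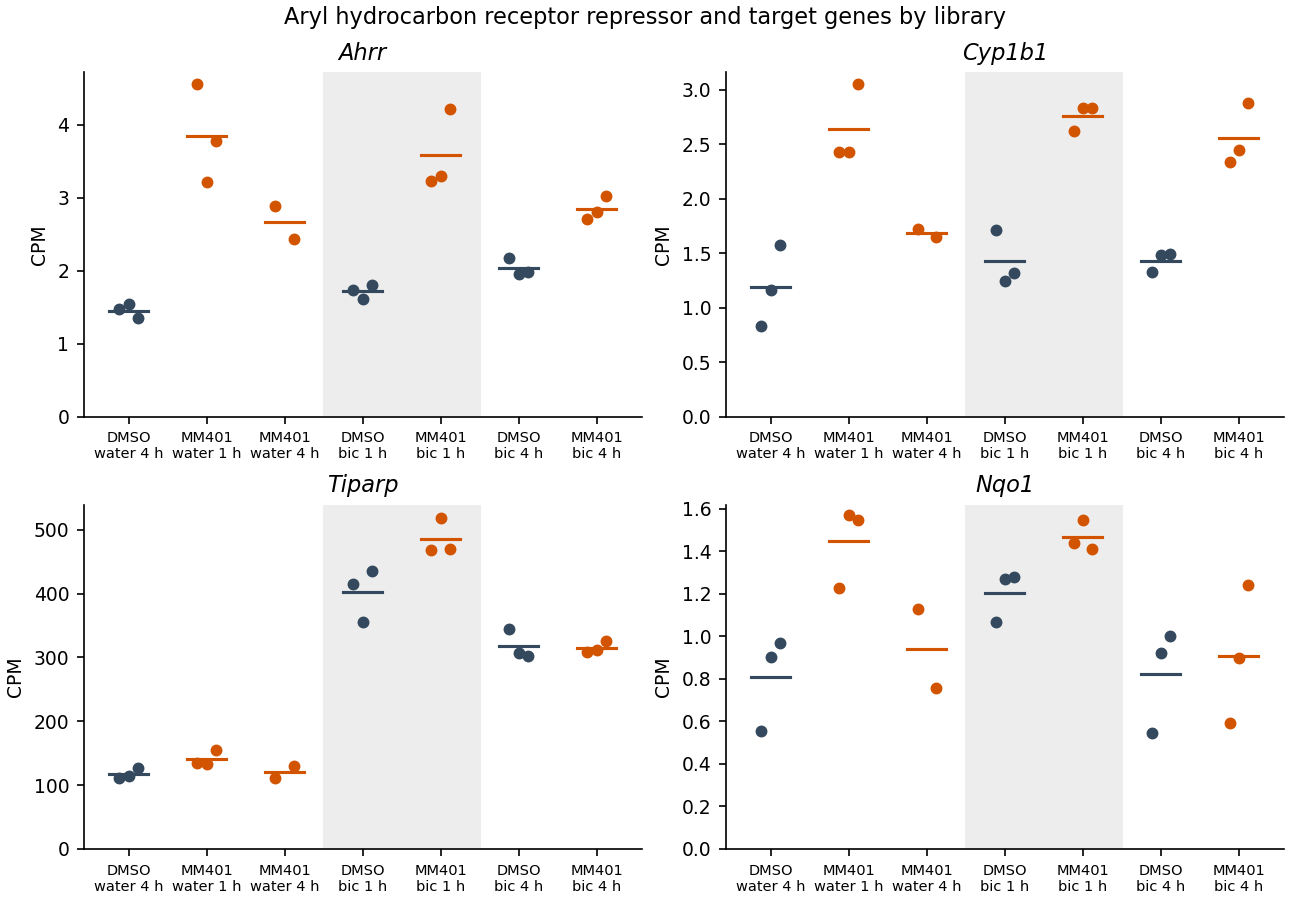
Level in CPM of Ahrr, Cyp1b1, Tiparp and Nqo1 in each of 20 libraries, by group; dots are libraries, bars are group means, orange is MM401 and the shaded columns are the 2 groups compared. In the shaded columns all MM401 dots of Ahrr (3.23 to 4.22) lie above all DMSO dots (1.61 to 1.81).

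Of the gene lists described here, the cytosolic ribosomal protein genes had the median farthest below 0. They encode the protein subunits of the cytosolic ribosome and are transcribed steadily in nearly all cells, and their promoters are noted for binding sites of ETS family factors such as GABP. Of 79 genes on the list, 75 were tested (Rpl26, Rpl30, Rpl34 and Rps27 had at most 5 counts per library). Of the 75, 71 were lower with MM401 and 4 higher, with a median log2 fold change of -0.21 beside 0.010 over all tested genes. None passed the adjusted threshold. The MM401 libraries lay wholly below the DMSO libraries in 31 of the 75, where 3.9% of all tested genes did, and 31 had an unadjusted p under 0.05 in the lower direction, where 1.65% of all tested genes did. Summed over the 75 genes, the level was 673, 659 and 598 CPM in DMSO and 546, 531 and 596 CPM in MM401. Replicate 3 of MM401 nearly reached the lowest DMSO library; without it the median was -0.30 with 73 of 75 lower, 45 lay wholly below DMSO (all genes 10.6%) and 38 had an unadjusted p under 0.05 in the lower direction (all genes 3.67%). Leaving out MM401 replicate 2, DMSO replicate 1 or DMSO replicate 2 gave 62, 63 and 67 lower, with medians of -0.18, -0.16 and -0.16. The count of lower genes was 71 or 72 under each of 4 scalings of the libraries (TMM, relative log expression, upper quartile and plain library size).

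The lower values were spread over both subunits. In the large subunit 40 of 44 genes were lower, with a median of -0.21, and in the small subunit 31 of 31, with a median of -0.19. Rpl37 (chromosome 15, 5116612 to 5119140) had 12.2, 11.2 and 9.16 CPM in DMSO and 8.16, 6.57 and 7.68 CPM in MM401, the lowest log2 fold change of the list at -0.55 ± 0.12 (edgeR adjusted p = 0.184). Rps4x (chromosome X, 102184940 to 102189391) had 11.3, 10.2 and 8.47 CPM and 6.94, 6.27 and 7.60 CPM, with -0.53 ± 0.11 (adjusted p = 0.146). Rps24 (chromosome 14, 24490677 to 24496960) had 16.9, 16 and 15.6 CPM and 12.4, 12.2 and 13 CPM, with -0.37 ± 0.071 (adjusted p = 0.124). In these 3 genes no library of one group reached the other. Rps3a1 was nearly constant within MM401 (8.78, 8.75 and 8.74 CPM, against 11.5, 10.8 and 11.4), with -0.36 ± 0.079. Rps3 (-0.30 ± 0.079) and Rpl37a (-0.43 ± 0.12) were apart as well. At the other end, Rpl22 had 7.45 to 9.69 CPM in DMSO and 9.06 to 9.79 in MM401 (0.10 ± 0.11). DESeq2 called 4 of the 75, all lower (Rps24, Rpl37, Rps3a1 and Rps4x), where it called 7 of all 16959 tested genes lower (0.0413%).

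**Figure D3:**
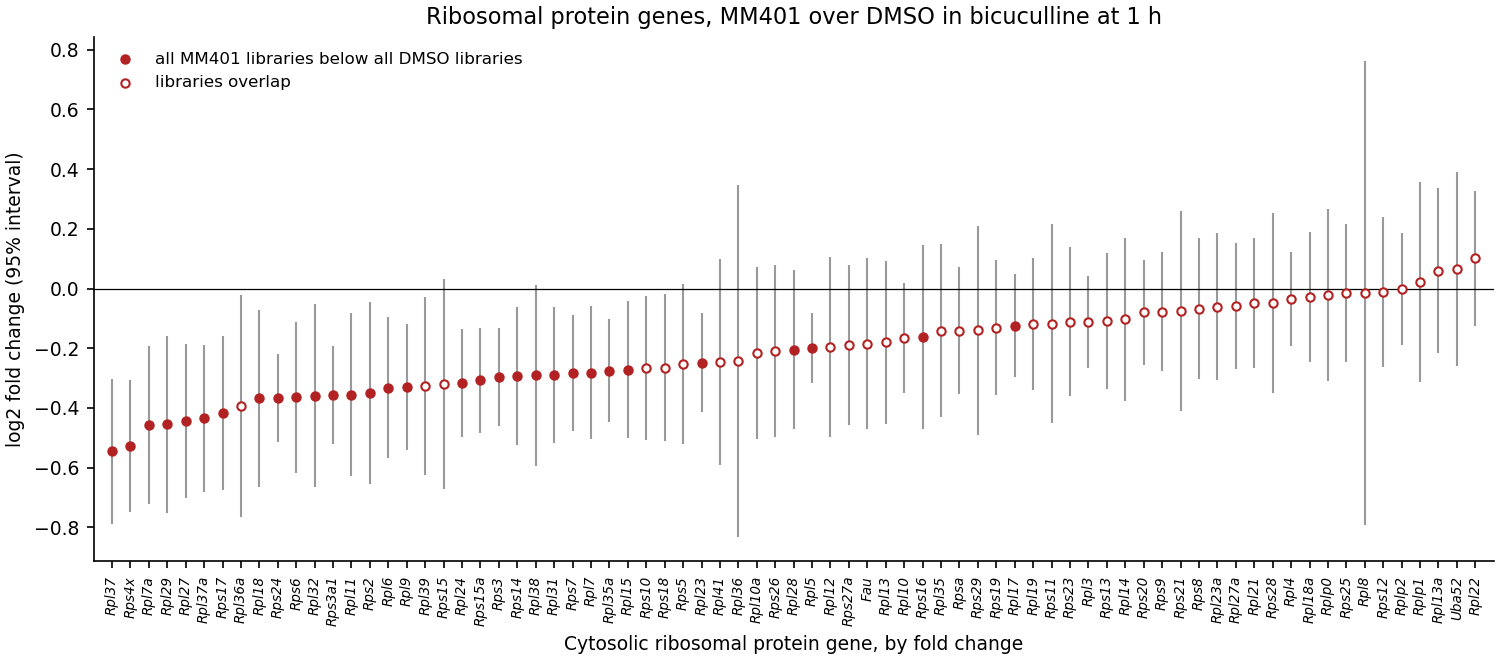
The log2 fold change, MM401 over DMSO, of each of the 75 tested ribosomal protein genes in bicuculline at 1 h with its 95% interval, in order of size. Filled points are the 31 genes in which every MM401 library lay below every DMSO library; values run from -0.55 (Rpl37) to 0.10 (Rpl22), and 71 lie below 0.

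Many ribosomal protein genes host small nucleolar RNA genes in their introns and share reads with processed pseudogenes, so that counts over the whole span can mix sources. Rpl37, Rps3a1 and Rps3 overlap such RNA genes on the same strand. Among the 47 tested members that overlap no other gene of the table, 44 were lower, with a median of -0.26. That check covers overlap in position only, not reads shared with processed pseudogenes. How reads that map to several places were counted is not given in the sources used here. The ribosomal protein genes are short: 74 of the 75 span under 10 kb, with a median of 3069 bases. Over the 4407 other tested genes under 10 kb the median at 1 h was 0.0040.

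Promoter windows of RefSeq (250 bases before to 50 after the start) were matched for 55 of the 75 genes. The ETS core CCGGAAG, searched on both strands, was present in 35.9% of their 64 windows and in 14.4% of the 16458 windows of all matched genes. The windows of Rps24 and Rps3 held no core and are not shown. The stretch from 60 bases before to 20 bases after the start is shown for Rpl37 (chr15:5116553-5116632, plus strand) and Rps3a1 (chr3:86142649-86142728, minus strand), which carry the core there (capitals), and for Rps4x (chrX:102189372-102189451, minus strand), which has a like log2 fold change and lacks it.
Rpl37: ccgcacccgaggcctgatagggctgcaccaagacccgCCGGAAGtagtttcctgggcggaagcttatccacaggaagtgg
Rps3a1: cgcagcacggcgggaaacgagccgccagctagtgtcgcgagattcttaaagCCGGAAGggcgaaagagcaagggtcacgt
Rps4x: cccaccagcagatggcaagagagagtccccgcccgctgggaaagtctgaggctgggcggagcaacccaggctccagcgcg
The 22 genes with the core had a median log2 fold change of -0.27, and all 22 were lower. The 33 genes with a window but no core had a median of -0.20 with 31 lower, and the 20 genes with no matched window -0.12 with 18 lower. The median was below 0 in each class, and the classes were not tested against each other.

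The median of the ribosomal protein genes was below 0 by a like amount at 1 h and in water at 4 h, and near 0 in bicuculline at 4 h. In bicuculline at 4 h, 38 of the 75 were lower, with a median of -0.0073, with MM401 libraries wholly below DMSO in 12 (all genes 11.3%) and wholly above in 9 (all genes 6.3%). In water at 4 h, 70 were lower, with a median of -0.24, and 36 were apart (all genes 14.5%). Other short genes differed between the conditions too: the median of the 4407 other tested genes under 10 kb was -0.15 in water at 4 h and 0.092 with bicuculline at 4 h. The part of gene length in these values was not tested. In the contrast of the 1 h effect with the 4 h bicuculline effect, 11 of the 75 had an unadjusted p under 0.05 (all genes 7.05%) and none was called. In the contrast with the water effect at 4 h, 0 of the 75 had such a p (all genes 7.82%).

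**Figure D4:**
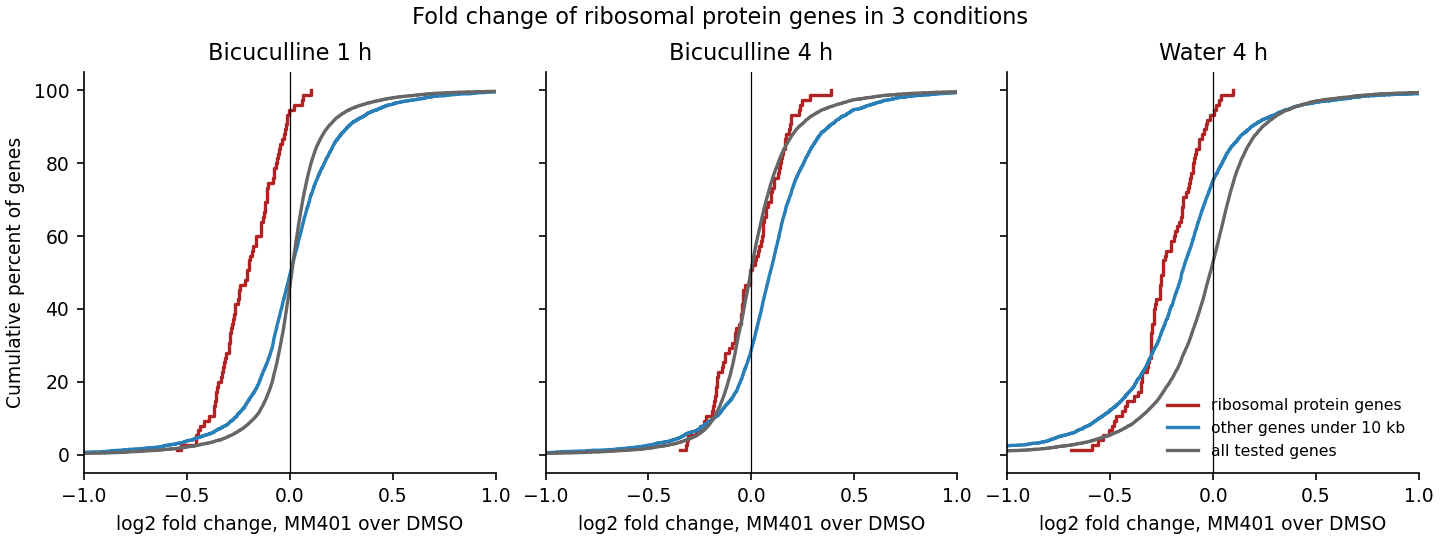
Cumulative percent of genes by log2 fold change, MM401 over DMSO, in bicuculline at 1 h, bicuculline at 4 h and water at 4 h, for the 75 ribosomal protein genes (red), the other tested genes under 10 kb (blue) and all 16959 tested genes (grey). At 1 h the red curve lies left of both others (median -0.21 against 0.010 for all genes); at 4 h of bicuculline it lies near the grey curve and left of the blue one.

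Beyond these groups, the genes with the smallest p in each direction were of mixed kinds. Of the 10 with the smallest p that were higher, Gpnmb, a membrane glycoprotein of phagocytes and melanocytes, had 20.9, 24.0 and 26.7 CPM in DMSO and 38.7, 37.9 and 38.0 CPM in MM401 (0.68 ± 0.14, edgeR adjusted p = 0.177, and 0.033 when the 6 libraries were fitted alone). Cd28, best known as a costimulatory receptor of T cells, had 1.23, 1.74 and 2.07 CPM and 2.93, 3.12 and 4.13 CPM (1.03 ± 0.21, adjusted p = 0.148). Fcgr2b, the inhibitory Fc receptor of myeloid and B cells, had 3.49, 3.81 and 4.02 CPM and 5.06, 6.48 and 5.84 CPM (0.62 ± 0.13, adjusted p = 0.177). The groups of each of the 3 did not overlap, which a choice by small p favours. Cgref1 (0.42 ± 0.078), Lipg, an endothelial lipase (0.39 ± 0.099), Cdk2ap1 (0.38 ± 0.10) and Ccno, a cyclin of multiciliated cells (0.77 ± 0.22), were apart too. The actin-associated Lmo7 was not, with 206 to 265 CPM in DMSO and 257 to 360 in MM401 (0.44 ± 0.10), replicate 3 being the low MM401 library.

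Gpnmb and Fcgr2b are expressed by microglia, so microglial markers are given beside them. All 5 tested markers were higher with MM401 (median 0.15) and none was called or apart between groups. Their summed level was 23.4 to 30.3 CPM in DMSO and 29.4 to 32.2 in MM401, with Csf1r, the receptor that microglia depend on, at 6.15 to 7.07 and 6.62 to 6.96 CPM (0.020 ± 0.13), and Aif1 at 1.17 to 3.03 and 2.36 to 3.65 CPM (0.69 ± 0.29). The sixth, Tmem119, had at most 6 counts in any library. More cells of a type and more RNA per cell cannot be told apart in bulk libraries, and the part of microglia in the values of Gpnmb and Fcgr2b was not tested.

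Of the 10 genes with the smallest p that were lower, 6 were ribosomal protein genes (Rps24, Rps4x, Rpl37, Rps3a1, Rps3 and Rpl37a). Eef1g, a subunit of the elongation factor that loads transfer RNA onto the ribosome, had 27.5, 27.6 and 28.2 CPM in DMSO and 23.0, 23.1 and 21 CPM in MM401. It was the tightest of these differences, -0.31 ± 0.057 (edgeR adjusted p = 0.0864). Cct7, a subunit of the CCT chaperonin that folds actin and tubulin, had 22.9, 24.6 and 24.4 CPM and 16.9, 18 and 19.6 CPM (-0.40 ± 0.080, adjusted p = 0.146); it overlaps Pradc1 on the opposite strand. Rnps1, a splicing regulator, had 17.1 to 19.8 and 14.5 to 15.4 CPM (-0.33 ± 0.071), and Lrrc24 had 2.30 to 2.75 and 1.68 to 1.96 CPM (-0.47 ± 0.11). All 10 were without overlap between the groups, which a choice by small p favours. Of all tested genes 3.9% were apart in this direction.

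For these 20 genes the direction was also read in the 4 h groups, whose means do not enter the 1 h fold change, though these libraries share the estimate of spread by which the 20 were ranked. In bicuculline at 4 h, 17 of the 20 had the same sign, where 44.3% of all tested genes did, and in water at 4 h 16 did, where 53% of all tested genes did. Cd28 and Gpnmb were among those with small values at 4 h: Cd28 had 0.090 ± 0.20 and 0.0075 ± 0.23, and Gpnmb 0.074 ± 0.13 and -0.038 ± 0.15, in bicuculline and water. The effect in bicuculline at 1 h minus that at 4 h was 0.94 ± 0.29 for Cd28 and 0.61 ± 0.19 for Gpnmb, with edgeR adjusted p-values of 0.70. Over all genes neither difference contrast called a gene: 1195 genes (7.05%) had an unadjusted p under 0.05 against the 4 h bicuculline effect and 1326 (7.82%) against the water effect, and DESeq2 called 0 and 10. The count of 1195 was 602 without MM401 replicate 2, 1977 without MM401 replicate 3, 1713 with plain library size and 470 with the shallow library in the fit, which brought the count of 1326 to 858.

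Averaging the MM401 effect over bicuculline at 1 h, bicuculline at 4 h and water at 4 h used 17 libraries and called 22 genes (0.13% of those tested), 7 higher (0.0413%) and 15 lower (0.0884%). The 1 h libraries are part of this average, so it does not stand apart from the 1 h comparison. Ahrr had 0.81 ± 0.086 (edgeR adjusted p = 6.29e-05), Cyp1b1 0.76 ± 0.11 (0.00324) and Fcgr2b 0.48 ± 0.079 (0.00998). Glis1, a zinc finger factor, and Megf11, a membrane protein, were called with 0.40 ± 0.066 and 0.18 ± 0.032; at 1 h they stood at 0.30 and 0.10. Of the 15 called lower, 10 were ribosomal protein genes, among them Rps4x (-0.44 ± 0.064, adjusted p = 0.00332), Rps3a1 (-0.31 ± 0.047), Rps24 (-0.26 ± 0.042) and Rpl23 (-0.30 ± 0.048). Eef1g (-0.24 ± 0.034, adjusted p = 0.00324), Cct7, Cct4, Csnk1d and Rnps1 were the other 5. Over the 75 ribosomal protein genes the median of the averaged effect was -0.16, beside -0.0042 over all genes. The call count was 2 with the shallow library in the fit, 0 of them ribosomal protein genes, 6 with plain library size, 1 of them a ribosomal protein gene, and 41 with DESeq2, 15 of them ribosomal protein genes, where DESeq2 called 0.142% of all genes lower. It was 12 to 14, with 4 to 6 ribosomal protein genes, when replicate 1 or 2 of DMSO or of MM401 at 1 h was left out, and 26, with 11 ribosomal protein genes, without MM401 replicate 3.

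No activity-induced gene of the lists differed between the pretreatments by an amount that passed the test. Of 22 rapid activity-induced genes 13 were higher and 9 lower, with a median log2 fold change of 0.015, and of 24 delayed ones 20 were higher and 4 lower, with a median of 0.062. Summed, the rapid genes were at 3610 to 3760 CPM in DMSO and 4030, 3840 and 3610 CPM in MM401 replicates 1, 2 and 3. The delayed genes were at 5370 to 5840 CPM in DMSO and 6210, 6570 and 5500 CPM in MM401, replicate 3 being the low library in both lists. Fos was at 291, 245 and 233 CPM in DMSO and 232, 246 and 300 CPM in MM401 (0.020 ± 0.16, 95% interval -0.32 to 0.36), so the groups overlapped fully. Fosb, which stood at 3.64 to 5.01 CPM in the DMSO libraries with water at 4 h, was at 218 to 255 and 231 to 252 CPM (0.062 ± 0.13). Npas4, a neuronal activity-dependent factor, was at 506 to 663 and 511 to 674 CPM (-0.0046 ± 0.16). Arc (0.070 ± 0.15), the nuclear receptor Nr4a1 (0.0095 ± 0.089), Egr3 (-0.0037 ± 0.096) and Egr4 (-0.14 ± 0.15) lay within the replicate spread as well. Nr4a2 was the highest of the rapid list, with 67.9 to 78.5 CPM in DMSO and 72.6 to 99.6 in MM401 (0.31 ± 0.13), where MM401 replicate 3 was the lowest of its group.

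Among the delayed genes, Bdnf, which encodes a secreted neurotrophin, was at 1030, 974 and 997 CPM in DMSO and 1030, 1120 and 892 CPM in MM401, with 0.015 ± 0.099 and a 95% interval of -0.19 to 0.22. Nptx2, a secreted pentraxin that gathers AMPA receptors, had 0.029 ± 0.094, Plk2, a kinase of synaptic downscaling, 0.0079 ± 0.077, Inhba 0.14 ± 0.24 and the neuropeptide gene Nts 0.11 ± 0.10. Homer1, a postsynaptic scaffold gene, had 2190, 2040 and 2730 CPM in DMSO and 2970, 3060 and 2200 CPM in MM401 (0.24 ± 0.13); replicate 3 of each group ran against the other replicates, and the groups overlapped. MM401 lay wholly above DMSO in 1 rapid gene (Klf4) and 2 delayed genes (Pim1 and Sik1), which are named after their values were seen, where 3.25% of all tested genes were apart in this direction. The ends of the delayed list were Serpinb2 (0.32 ± 0.23) and Crh (-0.28 ± 0.33). For Bdnf, Nptx2, Plk2 and Nr4a1 the 95% intervals stayed within 0.23 of 0 (-0.19 to 0.22, -0.17 to 0.23, -0.15 to 0.17 and -0.18 to 0.19). These intervals bound a missed change in level relative to the TMM-scaled library total. A change shared by all genes would not show in such levels.

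**Figure D5:**
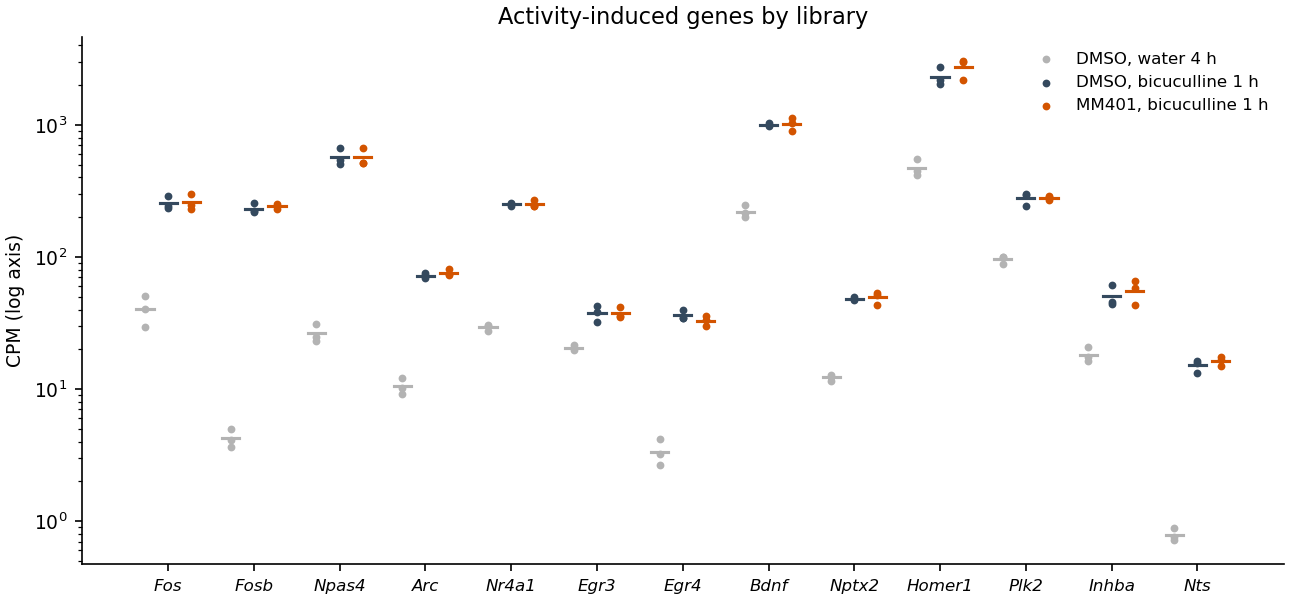
Level in CPM (log axis) of 13 activity-induced genes in each library of DMSO with water at 4 h (grey), DMSO with bicuculline at 1 h (dark) and MM401 with bicuculline at 1 h (orange); dots are libraries and bars are means of 3. The ranges of the dark and orange dots overlap in each of the 13 genes; Fosb, for example, lies at 218 to 255 and at 231 to 252 CPM.

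Genes of the target's own pathway differed little. Kmt2a was at 201, 225 and 221 CPM in DMSO and 239, 229 and 208 CPM in MM401 (0.063 ± 0.069), which is not a check of the inhibitor, since MM401 acts on the protein. The other H3K4 methyltransferase genes had 0.15 ± 0.10 (Kmt2b), 0.050 ± 0.064 (Kmt2c), 0.031 ± 0.095 (Kmt2d), 0.025 ± 0.070 (Setd1a) and 0.030 ± 0.081 (Setd1b). The core subunits that all of these complexes share had -0.058 ± 0.065 (Wdr5), -0.015 ± 0.063 (Rbbp5), -0.012 ± 0.056 (Ash2l) and 0.022 ± 0.080 (Dpy30). Over the 27 genes of the H3K4 methylation machinery 20 were higher and 7 lower, with a median of 0.022 that turned to -0.029 with plain library size, and none was called. Pagr1a, a subunit of the Kmt2c and Kmt2d complexes, was the highest, with 2.21 to 3.03 CPM in DMSO and 2.96 to 3.27 in MM401 (0.31 ± 0.13), and its groups overlapped. The 1 member without overlap, Paxip1, is named after its values were seen; 1 of 27 is about the share over all tested genes (3.25%).

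Genes known to depend on MLL1 in blood and brain were checked from a list of 15. Hoxa5, Hoxa7, Hoxa9, Hoxa10 and Hoxc8 had at most 3 counts in any of the 6 libraries and were not tested. Meis2, a homeobox partner of Hox proteins, had 919, 967 and 1100 CPM in DMSO and 1080, 1100 and 972 CPM in MM401 (0.078 ± 0.077), and Meis1 had 102 to 115 and 102 to 109 CPM (-0.034 ± 0.079). The highest of the 9 tested was Cdkn2c, an inhibitor of CDK4 and CDK6, with at most 1.4 CPM in DMSO and 1.66 to 1.84 in MM401 (0.41 ± 0.20). It was apart between groups (1 of 9, all genes 3.25%), which its choice as the highest member favours, and it was not called. The median of the 9 was 0.039.

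Other response programmes gave small values too, and no list below had a called gene. Of 15 cholesterol synthesis genes 14 were higher, with a median of 0.14, and 5 (Sqle, Fdft1, Cyp51, Sc5d and Msmo1, named after their values were seen) had an unadjusted p under 0.05, where 1.54% of all tested genes were higher at that level; of the 15 only Sc5d was without overlap. Sqle, squalene epoxidase, was the highest (27.1, 32.2 and 33.5 CPM in DMSO, 38.4, 37.5 and 31.9 in MM401, 0.22 ± 0.083), with MM401 replicate 3 inside the DMSO range, and Dhcr7 was the lowest at -0.0095 ± 0.067. In water at 4 h 13 of the 15 were lower, with a median of -0.053, 4 of them without overlap (all genes 14.5%). The 1 h effect minus the water effect had an unadjusted p under 0.05 in 6 of the 15 (all genes 7.82%), none of them called by edgeR. Of 9 target genes of the NRF2 oxidative stress pathway 7 were lower (median -0.16), with Hmox1, heme oxygenase, at 10.6 to 11.5 and 8.75 to 10.7 CPM (-0.21 ± 0.12), where the groups overlapped. The 2 higher members, Nqo1 and Gclc (0.097 ± 0.049), were both without overlap (2 of 9, all genes 3.25%), and of the lower ones Txnrd1 (-0.14 ± 0.067) was (1 of 9, all genes 3.9%); Gclc, a subunit of the enzyme that limits glutathione synthesis, and Txnrd1, a thioredoxin reductase, are named after their values were seen. Of 9 p53 target genes 8 were lower (median -0.12, lowest Eda2r with -0.34 ± 0.18), and of 12 feedback inhibitors of MAP kinase signalling 8 were lower (median -0.058, lowest Dusp2 with -0.78 ± 0.48 at under 0.3 CPM and overlapping groups). Without overlap in the lower direction were Bbc3 of the p53 targets (1 of 9, -0.25 ± 0.13) and Dusp5 and Spry4 of the feedback inhibitors (2 of 12, -0.14 ± 0.12 and -0.18 ± 0.094), where 3.9% of all genes were; these 3 are named after their values were seen. Of 15 unfolded protein response genes 10 were higher (median 0.072), 1 of the lower ones being without overlap (Chac1, named after its values were seen, -0.18 ± 0.11), and of 25 tested synaptic scaling genes 18 (median 0.059). Of 10 heat shock genes 4 were higher and 6 lower (median -0.016), with a summed level of 312 to 342 CPM in DMSO and 345 to 379 in MM401. Among them Hspa1b, Hsph1 and Hspa4l, named after their values were seen, were higher without overlap (3 of 10, all genes 3.25%), and Hsph1 and Hspa4l had an unadjusted p under 0.05 (2 of 10, all genes 1.54%). Of 9 interferon response genes 8 were higher (median 0.16), whereas in water at 4 h all 9 were lower with a median of -1.22, 8 of them without overlap (all genes 14.5%). The difference between these effects had an unadjusted p under 0.05 in 6 of the 9 (all genes 7.82%), none of them called.

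Because nascent RNA of long genes depends on how far polymerases have travelled in the labelling window, the percent of each library's counts that fell in genes of 100 kb or longer was compared. It was 61.0%, 61.4% and 62.5% in DMSO and 63.2%, 63.5% and 60.1% in MM401, or 61.6% ± 0.772 and 62.3% ± 1.87 (SD, n = 3). The difference of 0.638 percentage points was within the replicate spread (exact permutation test, two-sided, p = 0.7, where 0.1 is the smallest that 3 libraries against 3 can give), and replicate 3 of MM401 was the lowest of the 6; the difference was 1.72 without it, 1.07 without DMSO replicate 3, and 0.33, 0.17 and 0.024 without DMSO replicate 1, MM401 replicate 1 and MM401 replicate 2. Gene by gene, the 538 genes over 300 kb had a median log2 fold change of 0.067 and 13.9% of them were lower. Under 10 kb, with the ribosomal protein genes left out, the median was 0.0040 and 49.2% were lower. Without MM401 replicate 3 the median of the 538 was 0.12 and 9.48% were lower. Among genes over 300 kb the median was -0.17 in bicuculline at 4 h and 0.15 in water at 4 h, so the direction for the longest genes differed between the conditions.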

How the data were processed

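Nascent RNA sequencing by bromouridine labelling (BrU-seq) was analysed from 1 table of raw read counts per gene, deposited by the authors. Per the file headers the counts came from featureCounts over whole gene spans. Per the submitters' processing notes Bowtie2, UMI-tools, featureCounts, DESeq2 and deepTools were used with build mm10; versions, strand setting and annotation release are not given in the sources used here. No normalization had been applied; 412 genes listed several positions and kept their summed count.

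Tests used edgeR 4.0.16, with limma 3.58.1 loaded, under R 4.3.3: filterByExpr by group (minimum count 10, minimum total 15), TMM scaling, and 1 robust quasi-likelihood fit of 7 group means over 20 libraries without a block, the shallow library left out. Genes were called at a Benjamini-Hochberg adjusted p-value under 0.05 over all 16959 tested genes; tests were two-sided. CPM are relative to TMM-scaled totals. Fold changes are on the log2 scale with SE. DESeq2 1.42.0, other scalings, filters, a replicate block and leaving out each library were alternatives; 2 checks of the ribosomal protein genes (against other short genes, and members overlapping no other gene) were added after seeing the data. The fit was tested on simulated data. "Apart" or "without overlap" means that every library of one group lay beyond every library of the other.

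Named genes were the called genes, the 10 smallest p-values each way (at least 2 CPM in the higher group, no predicted or small RNA genes), up to 5 called genes each way in the averaged and difference contrasts, a fixed set of pathway and activity genes, and the highest and lowest member of other lists, as far as the text needs them; others were named after their values were seen where the text says so. Members and gene lists were chosen with earlier results of these data known, so no list is independent evidence. Promoter windows are RefSeq's (GRCm38.p6), matched by symbol. Some members of the lists are counted but not reported here by name.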

Additional observations from a re-analysis of the deposited data

How the results depend on the processing

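The count of calls at 1 h was 1 in each setting that keeps all 6 libraries other than DESeq2 (13) and the replicate block (4), and with 1 library left out it ranged from 0 to 2; without DMSO replicate 3 Rps4x was called beside Ahrr. In the fit on the 6 libraries alone the 1 call was Gpnmb, not Ahrr. The genes with an unadjusted p under 0.05 at 1 h, 540 in all, were 292 with all 21 libraries and 253 in the fit on the 6 libraries with a replicate block; with all 21 libraries those against the bicuculline effect at 4 h went from 1195 to 470 and those against the water effect from 1326 to 858. The median of the ribosomal protein genes was below 0 in every setting, from -0.16 to -0.30 with 1 library left out, the lowest without MM401 replicate 3. For the averaged effect the calls were 22, but 2 with all 21 libraries, 6 with plain library size, 41 with DESeq2 and 12 to 26 with 1 library left out; ribosomal protein genes called lower were 10, but 0 with all 21 libraries, 1 with plain library size, 15 with DESeq2 and 4 to 11. The 1 h effect against that in water at 4 h gave 0 calls with edgeR and 10 with DESeq2. The difference in the percent of counts in long genes stayed above 0, between 0.024 and 1.72 percentage points with 1 library left out. Groups share replicate numbers, and the sample titles number all libraries of replicate 1 first, then those of replicates 2 and 3. Same-numbered libraries of the 2 compared groups did not deviate together (correlations of 0.0862, -0.127 and -0.471). With 3 libraries per group these correlations cannot exclude a batch that same-numbered libraries share. The main fit did not take the number as a pairing. With it as a replicate block 4 genes were called (Ahrr, Cyp1b1, Cd28 and Cct7). Of 72 named genes followed through 17 settings, 49 kept their sign throughout, Ahrr and Cyp1b1 among them, and the other 23 lay near 0 or varied between replicates. Plain library size turned Ptges3 (-0.023), Fos (-0.026), Plk2 (-0.045), Kmt2d (-0.021), Nr4a1 (-0.041), Dpy30 (-0.028), Bdnf (-0.040), Arnt (-0.011), Setd1b (-0.021), Nptx2 (-0.026), Arnt2 (-0.047), Setd1a (-0.027) and Csf1r (-0.029). All 21 libraries turned Plk2 (-0.0079), Nr4a1 (-0.0064), Bdnf (-0.0010) and Arnt2 (-0.0086). Upper quartile scaling turned Plk2 (-0.0068), Nr4a1 (-0.0041) and Arnt2 (-0.0066). The fit on the 6 libraries alone turned Plk2 (-0.0041), Nr4a1 (-0.0020) and Arnt2 (-0.0049). That fit with a replicate block turned Nr4a1 (-0.0038), Hsp90ab1 (0.030), Bdnf (-0.0019) and Arnt2 (-0.0039). With 1 of the 6 libraries left out, the log2 fold change spanned 0 for Rbbp5 (-0.057 to 0.022), Ptges3 (-0.0068 to 0.050), Meis1 (-0.076 to 0.0013), Fos (-0.11 to 0.12), Inhba (-0.0076 to 0.31), Plk2 (-0.093 to 0.062), Egr3 (-0.10 to 0.080), Kmt2d (-0.053 to 0.078), Nr4a1 (-0.048 to 0.036), Hsp90ab1 (-0.35 to 0.28), Dpy30 (-0.033 to 0.10), Npas4 (-0.15 to 0.12), Bdnf (-0.061 to 0.084), Nptx2 (-0.036 to 0.11), Cyp2s1 (-0.49 to 0.13), Arnt2 (-0.029 to 0.067), Setd1a (-0.048 to 0.061), Ash2l (-0.055 to 0.010), Crh (-0.58 to 0.028), Rpl22 (-0.0040 to 0.18) and Csf1r (-0.043 to 0.049). The cause of these changes was not tested. Depth limits what can be said of genes under 1 CPM, whose median SE was 0.366.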
